A study of Homo sapiens with 53 samples.

Results

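Binding of TET3 was compared in HEK293T, an established line of human embryonic kidney origin, between the solvent DMSO and the compound BPK-25, using the 2 peak lists obtained with an antibody against the Flag tag. All rows of both lists were taken, and rows that overlapped or touched were merged. This gave 14129 TET3 peaks under DMSO (from 15553 rows) and 13360 under BPK-25 (from 13974 rows), or 27489 of the 706206 peaks in the 10 lists of the series. The label of the lists names TET3, and no marker in peak lists can check a protein's identity; immunoprecipitation of untagged cells with the Flag antibody was not analysed here.

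The series used chromatin immunoprecipitation followed by sequencing (ChIP-seq) for CTCF and MBD3 and, through a Flag tag, for TET1, TET2 and TET3, in 53 samples of 18 groups. The TET3 experiment holds 4 groups of 3 libraries. They are Flag immunoprecipitates and inputs of HEK293T cells carrying TET3-Flag after DMSO, and immunoprecipitates and inputs of the same kind of cells after BPK-25 at 30 µM, with 72 h of treatment in both arms. The labels call the tagged cells derived edited cells; the sources used here do not give the promoter, the level of the tagged protein, whether a line is 1 clone, or whether replicates were separate cultures. Each list was taken as called on its replicates together against input, with 3 replicates for TET3. Every value below is thus 1 value per treatment, with no spread between replicates and no test between treatments. The TET2 immunoprecipitate under DMSO has fewer than 3 libraries in the series, whereas every other group has 3. Intervals in brackets are 95% intervals for counting error alone, by the exact Clopper-Pearson method for shares.

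TET3 is a dioxygenase that oxidises 5-methylcytosine, a step on the way to removal of DNA methylation. TET1 and TET2 carry out the same reaction, and TET1 and TET3 can bring their own DNA-binding CXXC domain to CpG-rich DNA. CTCF, a zinc-finger protein, sits at insulators and at the feet of chromatin loops, and it binds some of its sites better when they are unmethylated. MBD3 is a subunit of NuRD, a complex that combines chromatin remodelling with histone deacetylation. BPK-25 has been reported to lower the amount of NuRD subunits; protein levels were not measured in these files.

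The TET3 lists were of similar length, but they held mostly different sites. Of the 14129 DMSO peaks, 4502 (31.9%, 31.1 to 32.6) overlapped a BPK-25 peak by at least 1 bp and are called kept, and the other 9627 are called lost. Of the 13360 BPK-25 peaks, 4569 overlapped a DMSO peak and are called seen before, and 8791 (65.8%, 65.0 to 66.6) are called new. "Lost" and "new" describe membership of a list: a site just under the threshold of the authors' peak caller in 1 treatment is counted in the same way as a site with no signal.

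BPK-25 peaks were narrower, with a higher fold enrichment on a lower local background. The fold enrichment at the summit is the authors' ratio of pileup (overlapping fragments) to local background, taken here to have 1 added to each. It had a median of 4.38 under DMSO (quartiles 3.68 and 5.37) and 4.91 under BPK-25 (4.11 and 6.33). The genome background of a list, a measure of fragment coverage and not of library size, was 1.70 fragments under DMSO and 1.65 under BPK-25. The pileup itself was compared after division by this value. This relative pileup had a median of 8.84 under DMSO and 8.51 under BPK-25, and the local background had a median of 1.43 and 1.11 times the genome background. The median width was 277 bp (217 and 389) under DMSO and 213 bp (181 and 280) under BPK-25. Peaks of at least 500 bp made up 12.8% of the DMSO list and 4.22% of the BPK-25 list, and peaks under 200 bp 15.3% and 40.7%. All peaks together covered 4.70 Mb under DMSO and 3.40 Mb under BPK-25. The shortest peak was 177 bp in the DMSO list and 159 bp in the BPK-25 list, and the part of the caller's own length settings in the widths was not tested. TET3 peaks also lay farther apart under BPK-25: the median gap to the nearest other TET3 peak was 20.7 kb under DMSO and 27.7 kb under BPK-25, and 18.9% and 11.2% had another within 1 kb.

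Which list was longer depended on how strong a peak had to be, and on the scale of strength. Over all peaks the ratio of BPK-25 to DMSO peaks was 0.946. At a −log10 q of 5 or more there were 5404 DMSO and 6897 BPK-25 peaks, a ratio of 1.28, and at 10 or more 1756 and 2610, a ratio of 1.49. At a fold enrichment of 10 or more the numbers were 302 and 544, at 15 or more 63 and 125, and at 20 or more 16 and 36. Both scales are set against a local background that was lower under BPK-25. By relative pileup, 5285 DMSO and 4987 BPK-25 peaks reached 10, a ratio of 0.944, close to that of the whole lists. At 15 or more there were 1391 and 1574 peaks, at 20 or more 623 and 665 (ratio 1.07, counting interval 0.955 to 1.19), and at 40 or more 108 and 173. The surplus of strong BPK-25 peaks was thus smaller by pileup than by fold enrichment.

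**Figure D1:**
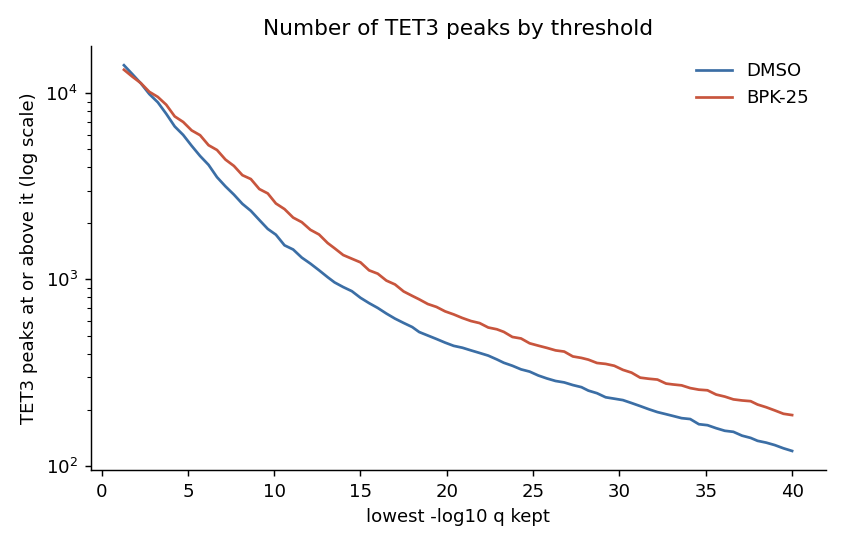
TET3 peaks (vertical axis, log scale) with a −log10 q at or above the value on the horizontal axis, for the DMSO and BPK-25 lists. The lines start at 14129 and 13360 peaks, cross at low values, and the BPK-25 line lies above the DMSO line at 5 (6897 against 5404) and beyond.

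Strong DMSO peaks were kept more often than weak ones. When DMSO peaks were ranked by −log10 q and divided into deciles, 15.4% of the weakest were kept (13.6 to 17.4), against 48.1% of the next strongest (45.4 to 50.7) and 72.5% of the strongest (70.1 to 74.8). Width showed the same order, from 18.9% kept among the narrowest DMSO peaks to 60.9% among the widest. In the BPK-25 list the new share was 76.9% in the weakest decile, 62.9% in the next strongest and 43.1% in the strongest. Strong BPK-25 peaks were therefore new less often than weak ones, although many were new. Of the 2610 BPK-25 peaks with a −log10 q of 10 or more, 1377 were new, against 65.8% of the whole list. Of the 1756 such DMSO peaks, 561 were lost.

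**Figure D2:**
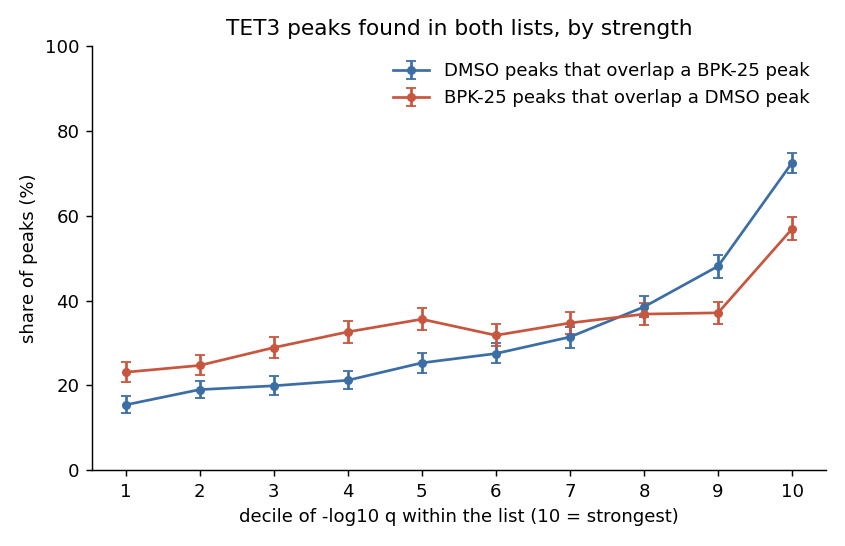
Share of TET3 peaks that overlap a peak of the other treatment (vertical axis, percent, with 95% counting intervals), by decile of −log10 q within each list. The DMSO share goes from 15.4% to 72.5%, and the strongest BPK-25 decile stays below the strongest DMSO decile.

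At sites found in both lists, less TET3 signal stood on a still lower background. Summits of the 2 lists lay within 100 bp of each other at 3422 sites, at a median distance of 27 bp. At these sites the relative pileup had a median of 11.8 under DMSO and 9.72 under BPK-25, and the median of the ratio was 0.859 (quartiles 0.667 and 1.12). The local background differed by more, with medians of 1.79 and 1.10 times the genome background and a median ratio of 0.700. The fold enrichment, which sets pileup against local background with the constant added to each, went the other way, from 4.88 to 5.67 with a median ratio of 1.13. The direction at shared sites depends on which of these scales is read.

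Changes of 1.5-fold or more in relative pileup were seen at 287 shared sites (8.39%) upward and 855 (25.0%) downward under BPK-25. At 2-fold or more they were 58 (1.69%) and 249 (7.28%). The same ratio had a median of 0.607 at 245 shared TET1 sites, 0.896 at 279 TET2 sites, 0.540 at 21372 CTCF sites and 1.11 at 30929 MBD3 sites. The local background ratio was below 1 in the other tagged lines as well, with medians of 0.610 for TET1 and 0.645 for TET2, whereas it was 0.990 for CTCF and 1.04 for MBD3.

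The sites TET3 occupied shifted with respect to the CTCF sites of the DMSO list. A DMSO CTCF peak lay at 58.1% of DMSO TET3 peaks (57.2 to 58.9) and 56.8% of BPK-25 TET3 peaks (56.0 to 57.6), and the lost and new peaks had shares of 55.1% and 54.4%. The last comparison depended on strength: new minus lost was -0.665 percentage points over all peaks, but 8.18 among peaks with a −log10 q of 5 or more, 13.9 at 10 or more, 11.1 with equal numbers of the strongest peaks, and 6.29 where 50% of the peak had to be covered. The lists differed in the strength of the CTCF sites. Among TET3 peaks at CTCF sites with a fold enrichment under 5, there were 2297 under DMSO and 945 under BPK-25, a ratio of 0.411. At CTCF sites of 5 to 10 the ratio was 0.397, and at 10 to 30 it was 0.490. At 30 to 100 it was 1.57, with 1694 DMSO and 2662 BPK-25 peaks, and at 100 or more it was 2.19, with 1218 and 2668. Away from CTCF peaks the numbers were nearly equal, 5927 and 5771. A CTCF peak of the BPK-25 list lay at 56.4% of DMSO TET3 peaks and at 42.5% of BPK-25 TET3 peaks. With that list the share was 56.8% for lost and 37.9% for new peaks.

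Seen from the CTCF sites, 35.6% of the 7342 with a fold enrichment of 100 or more had a TET3 peak under BPK-25, and 15.4% had one under DMSO. Of the 22853 CTCF sites under 5, the shares were 4.18% and 10.4%. Among TET3 peaks at the strongest CTCF sites, the kept share under DMSO was 51.5% (48.6 to 54.3, against 31.9% in the whole list) and the new share under BPK-25 76.6% (74.9 to 78.2). At CTCF sites under 5, these shares were 30.3% and 31.5%.

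The same order was seen within the shared TET3 sites. The median ratio of relative pileup was 0.735 at CTCF sites under 5, 0.736 at 5 to 10, 0.760 at 10 to 30, 0.948 at 30 to 100 and 1.20 at 100 or more (quartiles 0.940 and 1.50, 505 sites). Without a CTCF peak it was 0.838. Of the 505 shared sites at the strongest CTCF peaks, 24.8% were 1.5-fold or more higher under BPK-25 and 7.72% lower, set beside 8.39% and 25.0% over all shared sites. All TET3 peaks at these strongest CTCF sites had a median fold enrichment of 4.31 in the DMSO list and 6.57 in the BPK-25 list. No spread between replicates stands behind these differences.

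**Figure D3:**
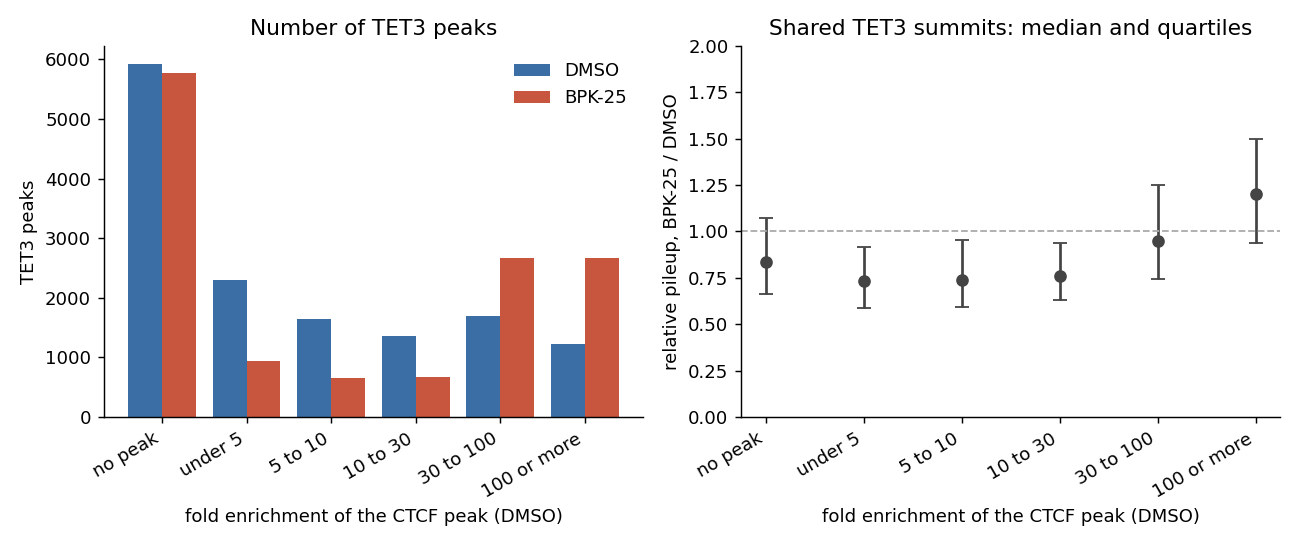
TET3 peaks by the fold enrichment of the DMSO CTCF peak they overlap. Left, the number of TET3 peaks under each treatment, with 1218 DMSO and 2668 BPK-25 peaks at CTCF sites of 100 or more; right, the median ratio of relative pileup at shared TET3 summits with bars from the lower to the upper quartile, which lies below 1 in the other classes and at 1.20 in this one.

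New TET3 summits sat close to CTCF summits. The TET3 summit lay within 50 bp of a DMSO CTCF summit for 43.5% of new peaks (42.4 to 44.5), 28.6% of BPK-25 peaks seen before, 23.3% of kept DMSO peaks and 13.0% of lost peaks (12.4 to 13.7). Within 20 bp the shares were 31.9% for new and 6.16% for lost peaks. Within 500 bp they came close together, at 56.0% and 54.1%. The widths differ in the same direction, with medians of 200 bp for new and 258 bp for lost peaks, and the part of narrower peaks in the distances was not tested. A CTCF summit with a fold enrichment of 100 or more lay within 50 bp of 1865 new peaks (21.2%) and of 159 lost peaks (1.65%).

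**Figure D4:**
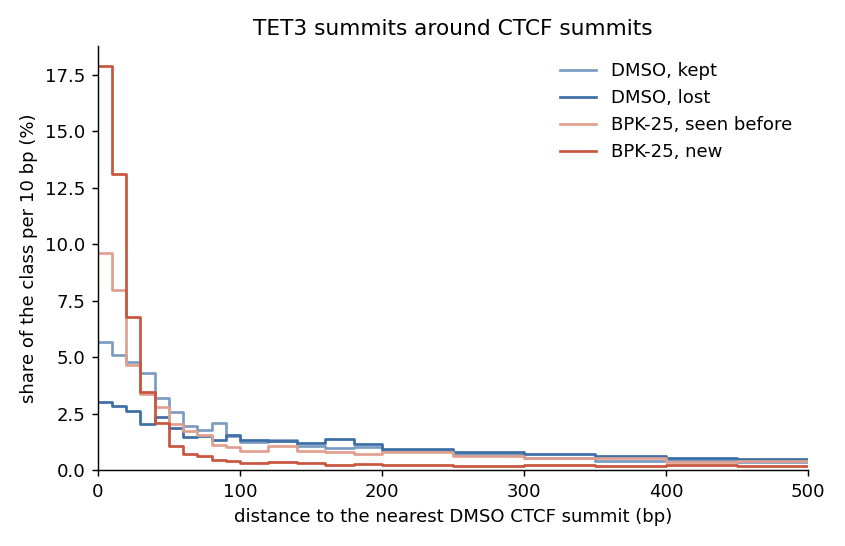
Distance from each TET3 summit to the nearest DMSO CTCF summit (horizontal axis, bp), as the share of the class per 10 bp (vertical axis, percent). New BPK-25 peaks pile up next to the CTCF summit, with 31.9% within 20 bp, and lost DMSO peaks have 6.16% there, with a shallower decline from 3.03% per 10 bp next to the summit to 0.476% at the far end.

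The strongest CTCF sites of the DMSO list were far less enriched under BPK-25. They were chosen high there; over all 21372 shared CTCF sites the fold enrichment ratio had a median of 0.532 with quartiles of 0.0667 and 1.21, and the BPK-25 CTCF list was the longer, with 245419 against 99587 peaks. Of the 7342 strongest DMSO CTCF sites, with a median fold enrichment of 136, 5437 (74.1%) overlapped a BPK-25 CTCF peak, and those had a median of 5.55. TET3 was listed under both treatments at 647 of these sites, under BPK-25 alone at 1965, under DMSO alone at 487 and under neither at 4243. A BPK-25 CTCF peak was found at 70.4% of the sites with TET3 under BPK-25 alone (68.4 to 72.4) and at 87.3% of those with TET3 under DMSO alone (84.0 to 90.1). The value was 83.5% where TET3 was listed in both and 72.8% where it was in neither. The DMSO CTCF peaks had median widths of 672, 849, 800 and 708 bp in the same order. Wider peaks can be overlapped more easily, and the part of width in these shares was not tested. CTCF and TET3 were measured in different cells, and the part of the weaker CTCF signal in the TET3 values was not tested.

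Toward MBD3 the shift in overlap ran the other way, whereas new summits lay closer to MBD3 summits too. A DMSO MBD3 peak lay at 82.6% of DMSO TET3 peaks (82.0 to 83.2) and 65.7% of BPK-25 TET3 peaks (64.9 to 66.5). By class the share was 89.2% for kept, 79.5% for lost and 53.8% for new peaks. Lost minus new was 25.8 percentage points over all peaks and 11.6 among peaks with a −log10 q of 10 or more. Away from MBD3 peaks there were 2457 DMSO and 4584 BPK-25 TET3 peaks, a ratio of 1.87. The ratio was 1.03 at MBD3 sites with a fold enrichment under 4, 0.853 at 4 to 6, 0.630 at 6 to 10 and 0.466 at 10 or more. At the strongest MBD3 sites 34.1% had a TET3 peak under DMSO and 17.0% under BPK-25. The TET3 summit lay within 50 bp of a DMSO MBD3 summit for 33.1% of new and 19.7% of lost peaks. Within 500 bp the shares were 53.6% and 70.9%. The MBD3 lists also changed with the treatment: 57.9% of DMSO and 44.8% of BPK-25 TET3 peaks overlapped a BPK-25 MBD3 peak.

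Taking CTCF and MBD3 sites jointly, the class of sites where both were listed under DMSO held 7563 DMSO TET3 peaks (53.5%) and 5954 BPK-25 TET3 peaks (44.6%). Sites with CTCF but no MBD3 went from 639 DMSO peaks (4.52%) to 1635 BPK-25 peaks (12.2%), and 88.1% of the latter were new (86.5 to 89.7, against 65.8% in the whole list). Sites with MBD3 but no CTCF went from 4109 to 2822 peaks. Peaks at neither protein went from 1818 (12.9%) to 2949 (22.1%), and 88.9% of the latter were new. The new share was 56.1% where both proteins were listed and 49.1% at MBD3 alone. Among these joint classes the new share was thus highest without an MBD3 peak, both with and without a CTCF peak. A high new share was not confined to such sites. It was 76.6% at CTCF sites with a fold enrichment of 100 or more. Of those CTCF sites with TET3 under BPK-25 alone, 87.9% overlapped a DMSO MBD3 peak. The class with neither protein was weak: 14.1% of its DMSO peaks and 26.0% of its BPK-25 peaks had a −log10 q of 5 or more, against 38.2% and 51.6% in the whole lists.

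**Figure D5:**
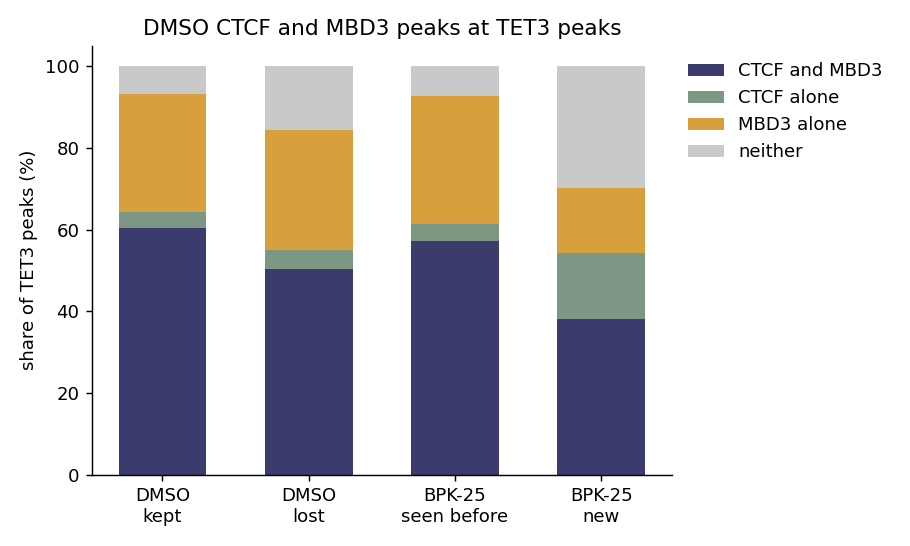
Share of each class of TET3 peaks (vertical axis, percent) that overlaps a DMSO CTCF peak, a DMSO MBD3 peak, both or neither. New BPK-25 peaks hold the largest shares of the 4 classes with CTCF alone (16.4%) and with neither (29.8%).

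DMSO TET3 peaks that coincided with the other TET proteins were kept more often. Of the 788 that overlapped both a TET1 and a TET2 peak of the DMSO lists, 83.9% were kept (81.1 to 86.4). The share was 49.3% of 2732 at TET1 alone (47.4 to 51.2), 49.4% of 162 at TET2 alone (41.4 to 57.3) and 23.1% of 10447 at neither (22.3 to 23.9). The shared peaks were also stronger, with a median fold enrichment of 6.95 at both and 4.16 at neither. They were wider as well, with a median of 420 bp at both and 257 bp at neither, and the part of width in the kept shares was not tested. Peaks with TET1 or TET2 were kept more often than peaks without in 10 of 10 deciles of −log10 q; in the weakest the values were 32.6% and 13.6%. All 3 TET proteins were immunoprecipitated with the same Flag antibody, and what tagged protein and antibody each contribute was not tested. A DMSO TET1 peak lay at 44.6% of kept, 15.7% of lost and 7.09% of new peaks, beside 24.9% of all DMSO and 19.6% of all BPK-25 peaks. For DMSO TET2 peaks the shares were 16.5%, 2.17% and 1.00%, beside 6.72% and 6.18%.

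The kept regions of highest −log10 q, named by a rule of 10 per class, had less TET3 pileup under BPK-25. The leading region was chromosome 17, 1372267 to 1373072 (hg19), where the fold enrichment went from 64.3 in DMSO to 32.1 in BPK-25. Its summit pileup was 184 fragments under DMSO and 112 under BPK-25, a ratio of relative pileup of 0.627 (0.492 to 0.798). Chromosome 18, 11688919 to 11689369, had fold enrichments of 40.8 and 19.7 and a ratio of 0.482 (0.339 to 0.679). Chromosome 15, 40885856 to 40886312, had 30.0 and 13.6, with a ratio of 0.451. The ratio was below 1 at 10 of 10 kept regions, and its counting interval lay below 1 at 9. Over all shared sites its median was 0.859 (quartiles 0.667 and 1.12). The fold enrichment was lower under BPK-25 at 8 of the 10. It was higher on chromosome 17 at 19091209 to 19092126 (12.3 and 24.2), on local backgrounds of 8.40 and 2.41 times the genome value and at a ratio of 0.660. It was also higher on chromosome 1 at 16871667 to 16872666 (18.1 and 29.7), with backgrounds of 3.93 and 1.64 times and a ratio of 0.814. Being ranked on the DMSO list, such regions were chosen high there. All 10 overlapped a TET1 and a TET2 peak under DMSO, 3 overlapped a DMSO CTCF peak, and that CTCF peak had a fold enrichment of at most 3.10. Of all DMSO TET3 peaks, 5.58% overlapped both a TET1 and a TET2 peak. In the strongest decile, 1023 of 1413 overlapped a TET1 or a TET2 peak, and 67.9% a CTCF peak.

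On chromosome X, 1324222 to 1325499, the fold enrichments were 50.8 and 28.0. A nearly identical pair of values was listed on chromosome Y, 1274225 to 1275504, with 55.0 and 27.2. The tips of X and Y share their sequence in the pseudoautosomal region, and how fragments were assigned between the copies is not stated, so this site counts as uncertain.

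The strongest lost regions overlapped MBD3 peaks and, in 9 of 10 cases, CTCF peaks of low or moderate fold enrichment. The leading one was chromosome 10, 5895537 to 5895905, with a DMSO fold enrichment of 16.4, no CTCF peak, and MBD3 at 2.86. Chromosome 5, 415427 to 415917, had a TET3 fold enrichment of 13.9, with CTCF at 7.85 and MBD3 at 15.5. Chromosome 1, 155099287 to 155099937, had 13.7, with CTCF at 5.15 and MBD3 at 10.0. Of the 10 lost regions, which had no BPK-25 TET3 peak within 1000 bp, 9 overlapped a DMSO CTCF peak and 10 a DMSO MBD3 peak, beside 67.9% and 94.7% of the strongest decile of DMSO TET3 peaks, so the MBD3 count was near the share for strong peaks in general. The CTCF fold enrichment was 16.7 at most.

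The 3 new regions of highest −log10 q were on chromosome 1 and not at strong CTCF sites. The leading one, 236260413 to 236260695, had 274 fragments on a local background of 17.7 times the genome background, with a DMSO CTCF peak of 3.42. The next, 567882 to 568172, stood on 12.1 times, and 228779290 to 228779688 had a fold enrichment of 14.4 on 3.29 times, both with no DMSO CTCF peak. The region at 567882 also overlapped BPK-25 peaks of TET1 (fold enrichment 11.3) and TET2 (8.20). Another new region nearby, 568764 to 568928, overlapped a BPK-25 TET1 peak of 11.8, on a local background of 13.8 times. Whether fragments at these neighbouring regions also match sequence elsewhere, as in the mitochondrial genome, was not tested, so both count as uncertain. Several of the strongest CTCF sites came after the 3 leading regions. Chromosome 17, 78549205 to 78549514, had a BPK-25 TET3 fold enrichment of 20.0 from 60 fragments, at a DMSO CTCF peak of 236. Chromosome 10, 73808343 to 73808580, had 19.7 at a CTCF peak of 178, and chromosome 9, 135897773 to 135898027, had 18.6 at 228. Of the 10 new regions, 7 overlapped a DMSO CTCF peak, 6 of them one of 100 or more. In the strongest decile of BPK-25 peaks, 76.6% overlapped a DMSO CTCF peak.

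At the shared sites that changed most, CTCF strength again differed. The 5 highest ratios of relative pileup ran from 2.93 to 3.50, and 5 of 5 sites overlapped a DMSO CTCF peak, with fold enrichments from 97.0 to 332. Among all 3422 shared sites, 1239 had no DMSO CTCF peak and 505 had one of 100 or more. On chromosome 9, 998605 to 999009, TET3 went from 28 fragments and a fold enrichment of 4.96 to 93 fragments and 22.1, a ratio of 3.42 (2.22 to 5.43), at a CTCF peak of 242. On the same chromosome, 124082402 to 124082622 went from 3.04 to 15.3 at a CTCF peak of 332. The 5 lowest ratios ran from 0.234 to 0.284, with CTCF at 31.9 or less. The lowest ratio was found on chromosome 11 at 3181406 to 3182156, where 97 fragments (fold enrichment 31.4) were listed for DMSO and 22 (5.92) for BPK-25, a ratio of 0.234 (0.140 to 0.374). These are extremes of 1 pair of lists, picked by their ratio, and are given as descriptions.

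TET3 peaks were densest on chromosome 6 between 26 and 28 Mb, a stretch that holds the major histone gene cluster among other genes. Which genes these peaks lie at was not looked up. The 1 Mb windows of this stretch held 57 and 71 DMSO peaks and 66 and 89 BPK-25 peaks. The median 1 Mb window with any TET3 peak held 4 under each treatment. Of the 128 DMSO peaks, 110 were kept (85.9%, 78.7 to 91.4, against 31.9% overall), and 75.8% overlapped a DMSO TET1 peak, against 24.9% overall. The median fold enrichment there was 6.20 under DMSO and 7.56 under BPK-25, and the median ratio of relative pileup at 97 shared summits was 0.966. By contrast, chromosome 16 between 1 and 3 Mb had 73 DMSO and 30 BPK-25 peaks, of which 15 DMSO peaks were kept (20.5%, 12.0 to 31.6). On chromosome X between 114 and 115 Mb, 27 of 34 DMSO peaks were kept and the median ratio was 1.46, on a local background of 6.97 and 8.44 times the genome background. These windows were chosen after their values were seen.

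On chromosome 2 the lists held narrow blocks of very high background. TET3 lies on this chromosome in GRCh38.p14, but its hg19 position was not used here, so whether the blocks fall in the gene was not tested. Between 74213523 and 74329312 of chromosome 2 (hg19), 5 DMSO and 7 BPK-25 peaks stood on a local background of 325 to 877 and 102 to 706 times the genome background. Their fold enrichments were 2.39 to 7.60 under DMSO and 6.58 to 11.7 under BPK-25. They covered 4625 bp and 5194 bp of a span of about 116 kb, and the source of this signal was not tested.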

How the data were processed

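At each summit the deposited peak lists hold a fold enrichment, which is a ratio, and −log10 values of p and q, all from the authors' peak caller. The submitters' processing notes name MACS2 2.1.2, Bowtie2 2.3.4, bedtools 2.25.0, FastQC 0.11.7 and SAMtools 1.9, with hg19 as the build, without their roles or settings. Coordinates are hg19 and 1-based.

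Overlapping or touching rows were merged, and each peak kept its summit of highest −log10 q. Pileup and local background were solved from fold enrichment, with its added constant, and the Poisson p-value. Of pileups under 200, 100% were whole to within 0.02. The lowest local background of a list served as its genome background, and a local background of 20 or more times this was called high. The lowest called pileup at the genome background was 8 fragments in both TET3 lists. Library totals were not used here. Ratios of pileup carry exact binomial counting intervals. Scripts used Python 3.11.15 with numpy 2.4.6, pandas 2.3.3, scipy 1.17.1 and statsmodels 0.14.6 and were tested on simulated data.

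Regions were named by −log10 q on the autosomes and X without high local background: 10 kept, 10 lost and 10 new with no peak of the other list within 1000 bp, and the 5 highest and 5 lowest ratios with a −log10 q of 5 or more in a list. Members, rules and CTCF and MBD3 classes were chosen with earlier results of these data known. No hg19 annotation or sequence was used, so genes and motifs at the regions are not named.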

Additional observations from a re-analysis of the deposited data

How the results depend on the processing

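With 1 pooled list per treatment, no replicate could be left out. No paired analysis was possible because each treatment has 1 list for its replicates. Of 57 values under alternatives, 30 stayed within the counting interval of the main value, 23 moved outside it and 4 reversed direction. A reversal was counted only where the interval of the main value excluded no difference. The new minus lost share at CTCF peaks, whose interval included it, could not count as reversed where its sign changed. The BPK-25 to DMSO number ratio (0.946) reversed to 1.28 at a −log10 q of at least 5, 1.49 at 10 1.80 at a fold enrichment of at least 10 and 1.07 (0.955 to 1.19) at a relative pileup of at least 20, was 0.944 at a relative pileup of at least 10 (these 3 added after seeing the data), and was 0.972 with equal relative pileup required. The kept share (31.9%) was 33.1% and 35.1% at a −log10 q of at least 5 and 10, 32.8% with rows within 500 bp merged, 23.3% with 50% of the peak covered and 28.8% with equal numbers of strongest peaks. The new share (65.8%) was 73.9% and 76.0% at a −log10 q of at least 5 and 10, 69.2% with 50% covered and 71.0% with equal numbers. The share at CTCF peaks, new minus lost, was -0.665 percentage points (-2.10 to 0.773), but 8.18 and 13.9 at a −log10 q of at least 5 and 10, 6.29 with 50% covered, 11.1 with equal numbers, and 22.4 for CTCF peaks of fold enrichment of at least 10 (added after seeing the data). The share at MBD3 peaks, lost minus new (25.8 points), was 23.2, 11.6, 22.4 and 21.4 under these settings in the same order, up to equal numbers. The share at TET1 peaks, kept minus lost (28.9 points), was 32.6, 33.6, 25.9 and 33.2 under the same ones. The cause of these moves was not tested. The median pileup ratio of 0.859 was the same under all alternatives tried for it, as were all 7 results, within counting error, on the autosomes and X or without high local background. Low pileups limit single sites: 8 fragments are the lowest called.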

Other observations

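The numbers of TET3 peaks compared differently from chromosome to chromosome, with no replicate check. The BPK-25 to DMSO ratio ran from 0.730 on chromosome 3 to 1.13 on chromosome 13, with fewer BPK-25 peaks on 14 of 23 chromosomes (autosomes and X) and more on 9. The kept share ran from 21.0% on chromosome 9 (17.3 to 25.1) to 40.5% on chromosome 6 (37.4 to 43.7). The new share was highest on chromosome 20, at 76.8%, and lowest on X, at 59.1%.

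Outside these chromosomes the lists held 90 DMSO and 111 BPK-25 TET3 peaks. The mitochondrial genome had 0 TET3 peaks under DMSO and 3 under BPK-25, which covered 16105 bp at up to 379 times the genome background. It had 0 under DMSO for the other targets as well, and under BPK-25 8 for CTCF, 8 for MBD3, 1 for TET1 and 1 for TET2. An unplaced contig, chrUn_gl000220, had 3 DMSO and 27 BPK-25 TET3 peaks, with 17 and 59 for CTCF and 36 and 54 for MBD3. Peaks of high local background numbered 42 in the DMSO and 98 in the BPK-25 TET3 list.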
